A study of Zea mays with 24 samples.

Results

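Retained introns of 101 to 250 bases formed 827 of the 3542 intron retention (IR) events that were listed for maize leaves at 4 maximum daily temperatures (MDTs). An event belonged to the set when its type was IR and its intron, counted from the end of the upstream exon to the start of the downstream exon, was 101 to 250 bases long. No threshold on the level of retention was set, but a value needed reads of both forms in some library, so introns never seen retained or never seen spliced are not in the set. At V5, 788 of these introns were listed, and at V4 760, with 721 at both stages. They lay in 709 genes, of which 619 had 1 such intron, 90 had 2 or more, and Zm00001d050936 had the most with 9.

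Plants of the inbred line W22 were grown from transplanting onward in chambers in which the daytime temperature was ramped up to an MDT of 37°C, 35°C, 33°C or 31°C and the night temperature was ramped back down. RNA came from the lamina of the first fully expanded leaf at stage V5, 27 days after germination (DAG), and at stage V4, 20 DAG. Each of the 8 groups held 3 libraries, 24 in all, labelled as replicates, which the study describes as biological. The labels name no transgene and no treatment beside the MDT. Every MDT ran in its own duplicate chambers, and the labels do not name the chamber of a library. The effect of a chamber and that of the MDT therefore cannot be told apart. V5 plants had also spent more days at their MDT than V4 plants.

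An intron is retained when the spliceosome leaves it in an otherwise mature transcript. In plants this is a common form of alternative splicing (AS), and it is known to respond to temperature, light and stress. A retained intron often brings a premature stop codon, so that such transcripts may stay in the nucleus, be degraded by nonsense-mediated decay or encode a shortened protein. An intron whose length is a multiple of 3 keeps the downstream reading frame if it holds no stop codon.

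Retention was measured as ψ, the percentage of transcripts of an event that keep the intron, computed from reads of the retained form and reads of the spliced form after division by the effective length of each. An event had a ψ value in a library only when at least 1 read of each form was seen. A library with reads of only 1 form therefore has no value, so a gap can hide a ψ at either end of the scale. Gaps were left out and not counted as a ψ of 0, which can draw means near the ends inward. Reads inside the intron counted towards the retained form. Gene IDs and positions are those of the B73 reference annotation, with the first base numbered 1. Whether an intron lies in a coding region or a UTR was not analysed here, and most of the genes below carry no name in the files used.

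Of the 827 introns, 822 were on chromosomes 1 to 10 and 5 on unplaced scaffolds, with 430 on the plus strand and 397 on the minus strand. Their median length was 138 bases, with 465 introns of 101 to 150 bases, 121 of 151 to 200 bases and 241 of 201 to 250 bases. The exons at either side had median lengths of 141 bases upstream and 138 bases downstream of the intron, in the direction of transcription. Lengths that are a multiple of 3 were most frequent among the shorter introns, where they made up 57.0% of those of 101 to 150 bases, 43.0% of those of 151 to 200 bases and 32.8% of those of 201 to 250 bases. Over all 827 introns the share was 47.9%. It was 47.5% at V5 and 47.2% at V4, against 58.4% and 58.8% for retained introns of up to 100 bases, and 32.0% and 32.3% for those of 251 to 1000 bases. These shares describe the annotated events and carry no test.

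**Figure D1:**
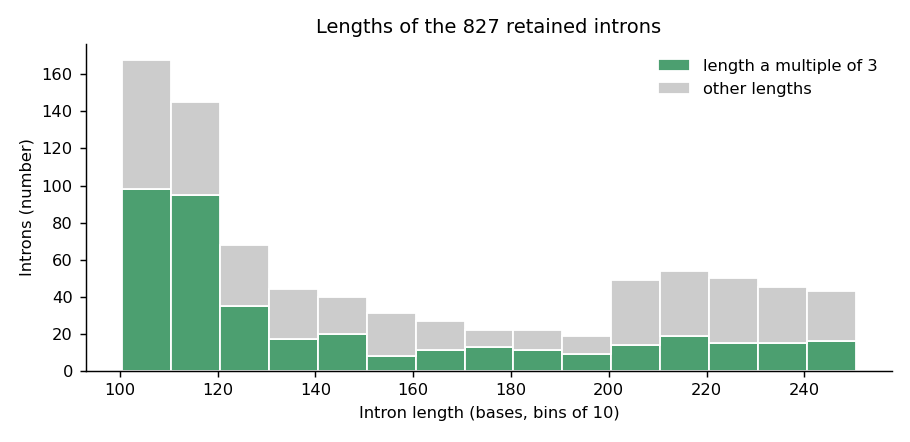
Number of retained introns (y axis) by intron length in bases (x axis, bins of 10), with lengths that are a multiple of 3 in green and other lengths in grey. The green share falls with length, with 57.0% for 101 to 150 bases and 32.8% for 201 to 250 bases.

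Retention spanned the whole scale. The mean ψ of an intron over the libraries in which it had a value had a median of 35.5% and quartiles of 7.31% and 78.8%. Of the 827 introns, 250 (30.2%) had a mean ψ below 10%, 227 (27.4%) lay between 10% and 50%, 224 (27.1%) lay between 50% and 90%, and 126 (15.2%) were at 90% or above. The extremes were listed in fewer libraries: introns at 90% or above had values in a median of 8.5 of 24 libraries, and those between 10% and 50% in 21. Only 193 introns had a value in all 24 libraries, and 108 had one in just 1 or 2. Among the 193, the median ψ was 26.4% with quartiles of 9.20% and 57.2%, and 6 stood at 90% or above.

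**Figure D2:**
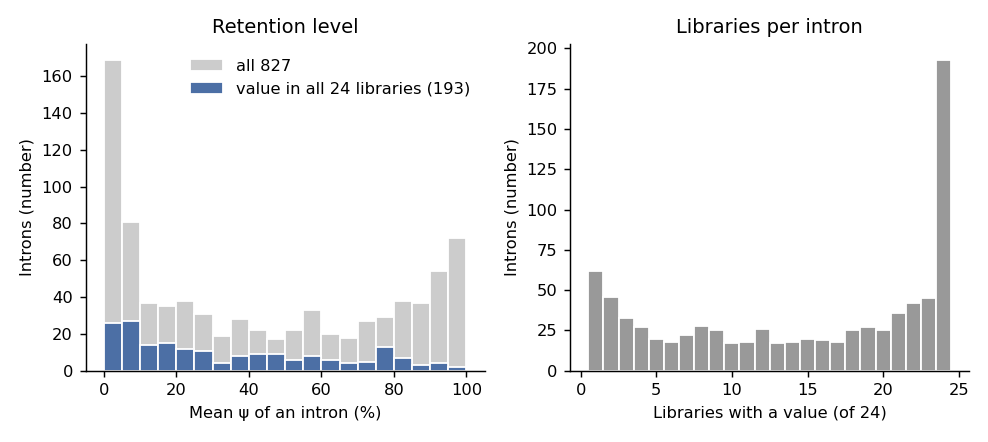
Left, number of introns (y axis) by mean ψ in percent (x axis) for all 827 introns in grey and for the 193 with a value in all 24 libraries in blue. Right, number of introns by the number of libraries with a value. The grey bars pile up at both ends, while the blue bars fall off towards high ψ, with 6 introns at 90% or above.

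Read depth was low for many introns. An intron had a median of 41.1 reads of both forms per library, with quartiles of 15.6 and 99.1. The libraries held between 499 and 557 introns with a value at V5 and between 455 and 504 at V4, and 91274 to 103403 reads over them at V5 against 74327 to 93533 at V4. Among the 570 introns with a mean of at least 20 reads, the median ψ was 45.4% for 101 to 150 bases, 80.1% for 151 to 200 bases and 15.4% for 201 to 250 bases, so it did not move in one direction with length. In introns with values in all 12 libraries of a stage and at least 20 reads, the median ψ was 25.1% at V5 and 26.9% at V4, next to 29.7% and 29.1% for shorter introns, 20.3% and 21.9% for introns of 251 to 1000 bases, and 28.4% and 23.1% for introns over 1000 bases.

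The general level of retention was highest at 35°C among the V5 groups. In order of MDT, the median ψ over the 193 introns averaged 24.3% ± 1.51, 26.5% ± 1.84, 27.9% ± 2.41 and 26.3% ± 1.53 at V5. At V4 it averaged 24.5% ± 1.22, 24.9% ± 1.13, 24.2% ± 1.10 and 26.4% ± 2.25 (SD, n = 3 each). The libraries of each higher MDT overlapped with those of 31°C, except at 35°C at V5, with 25.6% to 30.4% against 22.6% to 25.4% at 31°C. The mean ψ over the same introns varied less between libraries, and at V5 it was, in order of MDT, 34.8% ± 0.253, 35.6% ± 0.274, 36.7% ± 0.299 and 34.7% ± 0.363. The V5 libraries did not overlap between 35°C (36.4% to 37.0%) and 31°C (34.5% to 35.0%), nor between 33°C (35.4% to 35.9%) and 31°C, while those at 37°C (34.5% to 35.2%) overlapped with 31°C. At V4 the mean ψ was 34.3% ± 0.420, 33.9% ± 0.491, 33.7% ± 0.260 and 35.1% ± 0.952, and the libraries at 35°C (33.4% to 33.9%) lay just under those at 31°C (33.9% to 34.7%). Without the introns called in any test below, a split made after their values were seen, the mean over the other 177 was 35.9% ± 0.300 at 35°C against 34.6% ± 0.244 at 31°C at V5, again with no overlap. Over the 948 retained introns of other lengths with a value in all 24 libraries, the mean ψ was 28.6% ± 0.199 at 35°C against 29.1% ± 0.505 at 31°C at V5. At V4, both sets were lower at 35°C than at 31°C, with no overlap. The 177 introns had 32.9% ± 0.275 against 33.9% ± 0.533, and the 948 had 28.4% ± 0.119 against 29.4% ± 0.207. These means describe the sets and carry no test. In mixed leaf tissue, a shift of ψ within cells and a shift in the share of cell types cannot be told apart.

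High and low retention is described here for the well covered introns alone. Among the 68 introns with a value in every library and at least 100 reads per library, the intron of 117 bases in Zm00001d021620 (chromosome 7, 158179409 to 158179525) had the highest mean ψ, 99.0% at a mean of 22957 reads, and its group means stayed between 98.9% and 99.3%. It was followed by Zm00001d053834 (97.9%), Zm00001d050359 (94.5%) and Zm00001d009055 (93.4%). At the other end, Zm00001d003817 had a mean ψ of 0.414% at 1660 reads, followed by Zm00001d030020 (0.768%), Zm00001d032604 (0.778%) and Zm00001d007065 (1.28%). None of these 8 introns was called in any comparison below.

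Among the 20 of these introns with a mean ψ of 20% to 80%, the intron of 228 bases in Zm00001d015327 (chromosome 5, 84632335 to 84632562) varied least between groups. Its group means were 77.4%, 77.3%, 75.9% and 77.7% from the lowest to the highest MDT at V5, and 73.8%, 73.9%, 73.6% and 75.4% at V4, from a mean of 7278 reads. Zm00001d016679 (78.9%), the 215-base intron of Zm00001d023552 (25.2%) and Zm00001d038524 (74.5%) came next. In Zm00001d038524, ψ averaged 71.2% ± 4.01 at 37°C against 81.0% ± 3.81 at 31°C at V5, and 68.4% ± 4.71 at 37°C against 80.7% ± 3.88 at 31°C at V4. These changes had FDRs of 0.046 at V5 and 0.019 at V4 and were not called.

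Each higher MDT was compared with 31°C within a stage. An intron was called when its false discovery rate (FDR) over all IR events tested was at most 1% and its mean ψ differed by more than 5 percentage points, the thresholds used in the study. Of the 827 introns, 488 had enough reads and libraries to be tested in at least 1 of these 6 comparisons, 298 in all 6 and 339 in none. The 6 comparisons gave 25 calls in 16 introns. The comparisons of a stage share their 31°C libraries.

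At V5 33/31°C, retention changed in 3 of 437 introns (2 higher, 1 lower), next to 1.29% of all IR events tested (0.478% higher, 0.812% lower). At V5 35/31°C it changed in 8 of 413 (3 higher, 5 lower), next to 4.42% of all IR events (1.99% higher, 2.43% lower). At V5 37/31°C it changed in 9 of 422 (7 higher, 2 lower), next to 2.03% of all IR events (0.942% higher, 1.09% lower). At V4 33/31°C, 0 of 354 introns were called, next to 0.28% of all IR events (0% higher, 0.28% lower). At V4 35/31°C, 3 of 383 were called (2 higher, 1 lower), next to 1.56% of all IR events (0.323% higher, 1.24% lower), and at V4 37/31°C 2 of 372 (both higher), next to 2.2% of all IR events (1.38% higher, 0.826% lower). As shares of the introns tested these counts were 0.686%, 1.94% and 2.13% at V5 and 0%, 0.783% and 0.538% at V4, so only in V5 37/31°C was the share near that of all IR events and in the others it was lower. The difference between these shares was not tested. The median change over all tested introns lay between -0.37 and 0.30 points in the 6 comparisons, and over all IR events between -0.27 and 0.25 points.

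**Figure D3:**
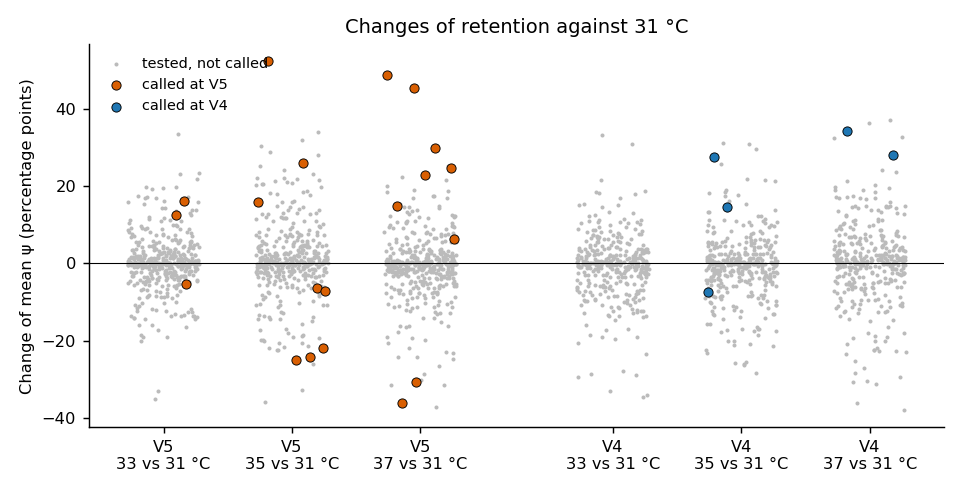
Change of mean ψ in percentage points (y axis) for every tested intron in each comparison of a higher MDT with 31°C (x axis), with called introns as large circles, orange at V5 and blue at V4, and the others as grey dots. The grey dots centre on 0 in all 6 comparisons, and the called introns lie on both sides, with the largest change at 52.3 points in V5 35/31°C.

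The number of calls depended on the test. At V5, edgeR called 0 introns in 33/31°C, 8 in 35/31°C and 6 in 37/31°C, and at V4 it called 2 in 37/31°C and 0 in the other comparisons, while limma on the logit of ψ called 0 in each. An unadjusted p under 0.05 in the quasi-binomial test was reached by 62, 91 and 77 introns at V5 and by 38, 51 and 76 at V4, going up in MDT, next to 18.4%, 24% and 20.2% of all IR events at V5 and 12.3%, 18% and 22.5% at V4. With limma these counts were 58, 83 and 69 at V5 and 32, 46 and 70 at V4, and with edgeR 60, 89 and 78 at V5 and 39, 52 and 76 at V4. The shares over all IR events were not computed with limma or edgeR.

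The 200-base intron of Zm00001d052093 (chromosome 4, 179377468 to 179377667, plus strand) was the only one called in 5 of the 6 comparisons. It was covered by a mean of 1039 reads per library. At V5, ψ was 26.4%, 27.6% and 31.2% at 31°C, 40.8%, 41.6% and 40.2% at 33°C, 44.0%, 40.5% and 48.1% at 35°C, and 50.1%, 54.0% and 49.8% at 37°C. At V4 it was 21.8%, 25.4% and 22.9% at 31°C, 28%, 27.7% and 31.1% at 33°C, 35.6%, 40.7% and 37.4% at 35°C, and 57.3%, 57.3% and 58.7% at 37°C. All libraries of the 3 higher MDTs lay above all 31°C libraries of their stage. In V5 37/31°C the mean was 51.3% ± 2.34 against 28.4% ± 2.50, a rise of 22.9 points (FDR = 6.2e-06). In V4 37/31°C it was 57.8% ± 0.808 against 23.4% ± 1.84, a rise of 34.4 points (FDR = 1.5e-08). In V4 33/31°C the difference of 5.54 points was not called (FDR = 0.072). Every call for this intron remained when any 1 library was left out. With edgeR, those in V5 33/31°C (FDR = 0.043) and V4 35/31°C (FDR = 0.016) were lost. At V4, spliced reads numbered 293, 288 and 266 at 37°C against 478, 403 and 404 at 31°C, and retained reads 922, 905 and 884 against 312, 321 and 281.

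Retention of the 203-base intron of Zm00001d047739 (chromosome 9, 140355217 to 140355419, plus strand) also increased at the higher MDTs at V5. There ψ was 42.9%, 40.6% and 33.8% at 31°C, 59.6%, 43.0% and 51.0% at 33°C, 60.8%, 68.1% and 66.0% at 35°C, and 64.6%, 71.7% and 71.0% at 37°C. The libraries at 35°C and 37°C lay above those at 31°C without overlap. The mean rose to 69.1% ± 3.91 at 37°C, against 39.1% ± 4.73 at 31°C (30 points, FDR = 0.0013), and to 65.0% ± 3.76 at 35°C (25.9 points, FDR = 0.0018). Both calls held with any 1 library left out. At V4, ψ was 27.2%, 36.1% and 25.2% at 31°C, 29.7%, 20.3% and 19.2% at 33°C, 42.2%, 46.2% and 48.6% at 35°C, and 51.9%, 45.1% and 62.7% at 37°C. The V4 difference in 37/31°C was 23.7 points and was not called (FDR = 0.016).

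In Zm00001d022272, the 230-base intron (chromosome 7, 174089405 to 174089634, plus strand) was called in 37/31°C at both stages. At V5, ψ was 42.6%, 40.0% and 39.4% at 31°C, 54.1%, 50.0% and 47.7% at 33°C, 36.2%, 44.0% and 41.8% at 35°C, and 57.1%, 55.2% and 54.2% at 37°C. In 37/31°C the mean rose by 14.8 points to 55.5% ± 1.47, against 40.7% ± 1.70 at 31°C (FDR = 0.0065), while the 35°C libraries overlapped those at 31°C. Its ψ at V4 was 55.2%, 43.8% and 39.4% at 31°C, 55.0%, 57.0% and 58.3% at 33°C, 63.6%, 64.7% and 64.5% at 35°C, and 72.8%, 74.6% and 75.4% at 37°C. The V4 group means stepped upward with MDT, and the 37°C libraries stood above all others of the stage. In V4 37/31°C the mean was 74.3% ± 1.33 against 46.1% ± 8.15 (28.1 points, FDR = 0.0018). The V5 call was lost on leaving out any of 5 of the 6 libraries (highest FDR = 0.018), and the V4 call without the third library at 37°C (FDR = 0.019). With edgeR, the V5 call was lost as well.

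The largest change of all was in Zm00001d026511, which the study names MAPKKK3, a mitogen-activated protein kinase kinase kinase; kinases of this family stand at the head of signalling cascades that relay stress signals. Its 114-base intron (chromosome 10, 147387187 to 147387300, minus strand) had a ψ at V5 of 7.10%, 1.70% and 19.1% at 31°C, 18.0%, 19.4% and 16.7% at 33°C, 61.8%, 60.7% and 62.3% at 35°C, and 9.80%, 11.7% and 17.2% at 37°C. Only the 35°C libraries stood apart, and the 37°C libraries fell within the range of the 31°C libraries. In V5 35/31°C the mean rose to 61.6% ± 0.819, against 9.30% ± 8.91 at 31°C (52.3 points, FDR = 7.3e-05), and the call held with any 1 library left out. The retained form gave 143, 150 and 137 reads at 35°C against 7, 1 and 10 at 31°C, and the spliced form 50, 55 and 47 against 52, 32 and 24. At V4 the intron had 16 to 34 reads per library and was low at every MDT: group means were 14.6% (n = 2), 6.05%, 4.20% and 2.70% from 31°C to 37°C.

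**Figure D4:**
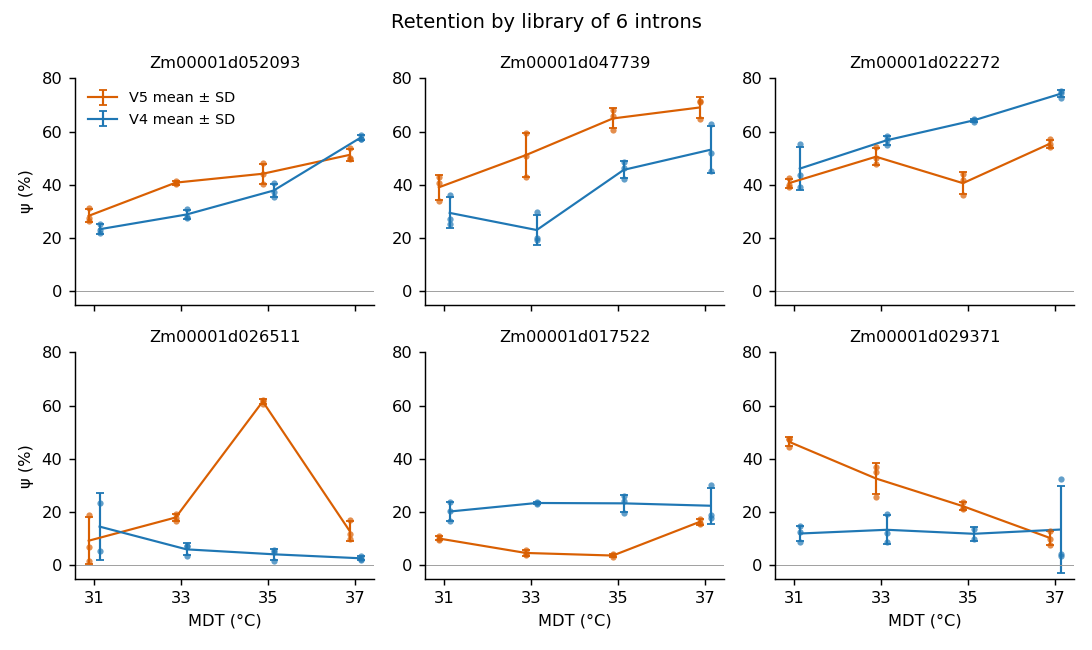
Retention as ψ in percent (y axis) by MDT in °C (x axis) for 6 introns, one panel per gene; points are libraries, lines join group means and bars are SD, with V5 in orange and V4 in blue. Retention climbs with MDT in Zm00001d052093, peaks at 61.6% at V5 35°C in Zm00001d026511, and steps down at V5 in Zm00001d029371 to 10.3% at 37°C.

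Retention fell in the 161-base intron of Zm00001d029371 (chromosome 1, 67927966 to 67928126, plus strand) at V5. Its ψ was 47.4%, 44.6% and 47.4% at 31°C, 35.1%, 25.9% and 37.0% at 33°C, 21.7%, 24% and 21.1% at 35°C, and 10.1%, 7.80% and 13.1% at 37°C, so the groups did not overlap at any step. The mean fell to 10.3% ± 2.66 at 37°C, against 46.5% ± 1.62 at 31°C (-36.1 points, FDR = 9.4e-06), and to 22.3% ± 1.53 at 35°C (-24.2 points, FDR = 0.00025). Both calls held without any 1 library. The 33°C difference of -13.8 points was not called (FDR = 0.25), with 19 to 34 reads per library there. At V4 the group means lay between 11.9% and 13.5%, from as few as 4 reads in a library.

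The 243-base intron of Zm00001d017522 (chromosome 5, 198589735 to 198589977, plus strand) changed in both directions at V5 and was called in all 3 comparisons of that stage. Its ψ was 10.1%, 10.9% and 9.40% at 31°C, 5.80%, 4.20% and 4.10% at 33°C, 4.00%, 4.20% and 3.00% at 35°C, and 15.6%, 16.0% and 17.6% at 37°C. No library of a higher MDT overlapped those at 31°C. The mean fell to 4.70% ± 0.954 in 33°C plants (-5.43 points, FDR = 0.0019) and to 3.73% ± 0.643 in 35°C plants (-6.40 points, FDR = 0.00023), and rose to 16.4% ± 1.06 in 37°C plants (6.27 points, FDR = 0.0074), against 10.1% ± 0.751 in 31°C plants. The calls in 33/31°C and 35/31°C held without any 1 library, whereas that in 37/31°C was lost on leaving out any of the 6 (FDR 0.012 to 0.021). With edgeR, the calls in 33/31°C (FDR = 0.024) and 37/31°C were lost. At V4 the group means lay between 20.3% and 23.5% and none was called.

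Some calls rose from low to intermediate retention on few reads. In V5 37/31°C, the 162-base intron of Zm00001d050936 (chromosome 4, 132630134 to 132630295) had a ψ of 57.9%, 65.7% and 73.4% at 37°C against 25.8%, 10.7% and 13.8% at 31°C, a rise of 48.9 points (FDR = 0.0065) at 12 to 38 reads per V5 library. The 109-base intron of Zm00001d006090 (chromosome 2, 197866435 to 197866543) had 53.6%, 69.8% and 57.4% at 37°C against 4.80%, 21.4% and 18.2% at 31°C (45.5 points, FDR = 0.0070), from 17 to 36 reads. In the 230-base intron of Zm00001d032505 (chromosome 1, 228781318 to 228781547) ψ was 43.1%, 38.8% and 42.4% at 37°C against 19.9%, 10.5% and 19.9% at 31°C (24.7 points, FDR = 0.0083). Each of these 3 calls was lost on leaving out 1 of several libraries, with FDRs of at most 0.039, 0.021 and 0.045. With edgeR, the call for Zm00001d032505 was lost as well.

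The other V5 increase was in the 105-base intron of Zm00001d010172 (chromosome 8, 102870700 to 102870804), with a mean of 322 reads. Its ψ was 59.3%, 60.9% and 64.7% at 33°C against 44.7%, 48.2% and 43.8% at 31°C (16.1 points, FDR = 0.0019). The call remained with any 1 library left out but was lost with edgeR (FDR = 0.043). At 35°C and 37°C the differences of 11.8 and 6.23 points were not called (FDR = 0.017 and 0.20).

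Among the V5 decreases, the 115-base intron of Zm00001d033987 (chromosome 1, 280370498 to 280370612) had a ψ of 59.3%, 71.9% and 58.9% at 37°C against 92.6% and 95.5% at 31°C, where the third library had no value (-30.7 points, FDR = 0.0063). In V5 35/31°C, the 143-base intron of Zm00001d006861 (chromosome 2, 218046374 to 218046516) had 60.0%, 69.8% and 69.5% at 35°C against 89.6%, 95.5% and 89.3% at 31°C (-25.0 points, FDR = 0.0042). In the same comparison the 225-base intron of Zm00001d006591 had 6.00%, 3.2% and 8.60% at 35°C against 16.6%, 28.5% and 38.3% at 31°C (-21.9 points, FDR = 0.0072). The 223-base intron of Zm00001d036337 had 3.2%, 1.70% and 1.10% at 35°C against 9.60%, 7.80% and 9.80% at 31°C (-7.07 points, FDR = 0.0042). All 4 decreases were lost on leaving out 1 of at least 2 libraries, at FDRs of up to 0.015, 0.017, 0.028 and 0.019.

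In V4 35/31°C, the remaining calls were opposite in direction. The 160-base intron of Zm00001d042940 (chromosome 3, 184601002 to 184601161, minus strand) had a ψ of 79.4%, 74.8% and 76.7% at 35°C against 47.1%, 54.7% and 46.2% at 31°C (27.6 points, FDR = 0.0064). Its V4 libraries at 33°C had 23, 33 and 37 retained reads against 4, 4 and 1 spliced reads. Those at 37°C had 50, 87 and 93 against 18, 4 and 1. At 31°C the counts were 59, 50 and 48 against 32, 20 and 27, so the spliced form gave fewer reads there too. These counts are not divided by effective length. Neither the 33°C nor the 37°C difference from 31°C was called. The 214-base intron of Zm00001d005881 (chromosome 2, 191715308 to 191715521, plus strand) had 1.60%, 2.90% and 1.90% at 35°C against 9.10%, 8.10% and 11.2% at 31°C (-7.33 points, FDR = 0.0096). Without 1 library the call for Zm00001d042940 was lost in 5 of 6 cases (highest FDR = 0.032), and that for Zm00001d005881 in all 6 (FDR 0.010 to 0.057). Both calls, and that for Zm00001d052093 in this comparison, were also lost with edgeR (FDR = 0.016 for each). With 1 spread shared by the 4 groups, the call for Zm00001d042940 was lost (FDR = 0.070).

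A test over the 4 MDTs of a stage asked whether retention of an intron differed among them at all. At V5 it called 23 of 385 introns (5.97%), next to 9.36% of all IR events tested, and at V4 3 of 334 (0.898%), next to 3.48% of all IR events. Of the 23 introns at V5, 12 were also called against 31°C and 11 were not, and Zm00001d006861 and Zm00001d036337 were called against 31°C but not over the 4 MDTs (FDR = 0.014 and 0.033). The mean ψ was highest at 31°C in 5 of the 23, at 33°C in 3, at 35°C in 7 and at 37°C in 8. It increased at each step in 4 introns, those of Zm00001d052093 (FDR = 3.5e-10), Zm00001d047739 (FDR = 9.9e-05), Zm00001d006090 (FDR = 0.00072) and Zm00001d050936 (162 bases, FDR = 0.0063), and decreased at each step in 2, those of Zm00001d029371 (FDR = 1.2e-09) and Zm00001d019194 (FDR = 0.0047). The 3 introns called at V4 were those of Zm00001d052093 (FDR = 1.8e-14), Zm00001d022272 (FDR = 0.00011) and Zm00001d047739 (FDR = 0.00016), all highest at 37°C.

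The 11 introns called at V5 only over the 4 MDTs showed several shapes. In the 233-base intron of Zm00001d010604, ψ was 24.4%, 39.4% and 17.4% at 31°C, 5.90%, 4.90% and 10.1% at 33°C, 10.7%, 3.00% and 6.90% at 35°C, and 25.2%, 28.1% and 12.7% at 37°C (FDR = 0.00052), low at the intermediate MDTs. The 113-base intron of Zm00001d008604 had group means of 84.7%, 66.0%, 90.3% and 81.2% from 31°C to 37°C (FDR = 5.9e-05), lowest at 33°C. In Zm00001d019194 (143 bases) they were 91.4%, 87.1%, 70.9% and 59.9% (FDR = 0.0047), and in Zm00001d006373 (110 bases) 92.7%, 94.9%, 81.8% and 76.3% (FDR = 0.0037). In Zm00001d036530 (162 bases) they were 48.0%, 67.6%, 78.5% and 61.7% (FDR = 0.0079), and in the 143-base intron of Zm00001d050936 39.4%, 58.7%, 71.3% and 43.3% (FDR = 0.0038), both highest at 35°C. In Zm00001d002534 (109 bases) they were 55.7%, 66.9%, 68.8% and 53.1% (FDR = 0.0040), and in Zm00001d005881 15.8%, 17.3%, 24.1% and 9.37% (FDR = 0.0023). In 2 weakly retained introns the spread was small: 2.97%, 6.13%, 0.967% and 1.93% in Zm00001d031860 (123 bases, FDR = 3.1e-05) and 3.47%, 3.37%, 2.10% and 9.10% in Zm00001d044478 (236 bases, FDR = 0.0010). The calls for Zm00001d010604 and Zm00001d008604 held without any 1 of the 12 libraries, and each of the others named in this paragraph was lost without at least 1.

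**Figure D5:**
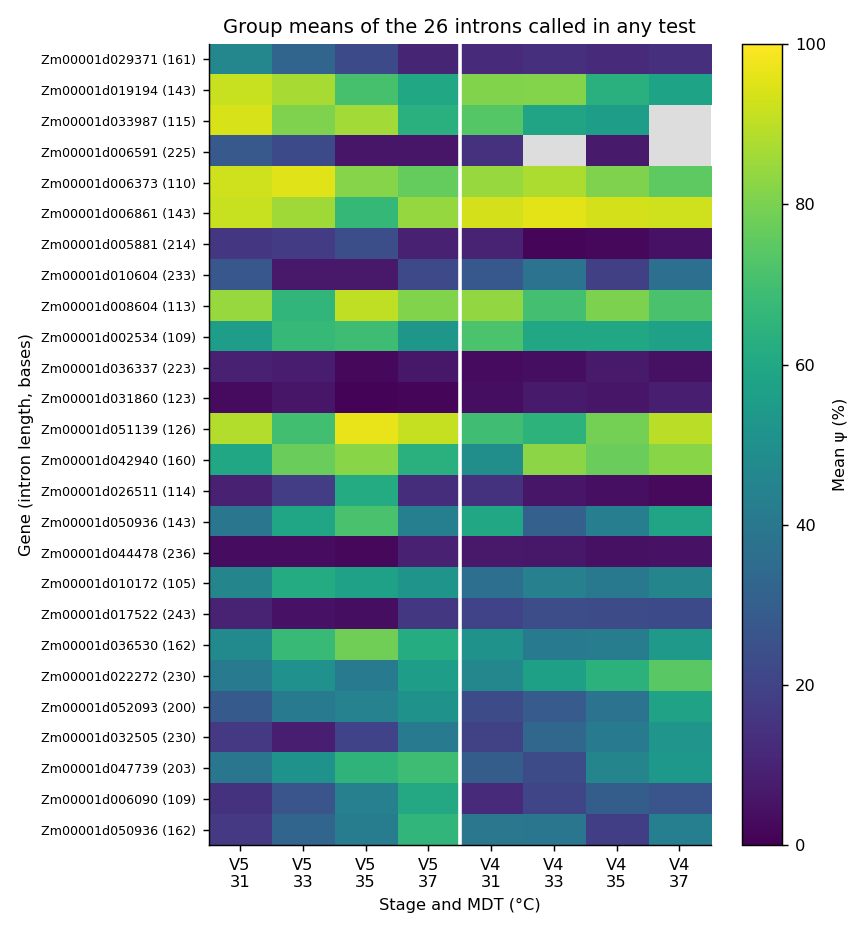
Mean ψ in percent (colour) of the 26 introns called in any test (y axis, gene and intron length in bases) in the 8 groups of stage and MDT (x axis), with V5 to the left of V4 and grey where no library had a value. Introns are ordered by the V5 difference between 37°C and 31°C, which runs from -36.1 points in Zm00001d029371 at the top to 48.9 points in Zm00001d050936 at the bottom.

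Whether the change against 31°C differed between the stages was tested directly. Of the introns tested, 2 of 352 differed in 33/31°C, 4 of 356 in 35/31°C and 1 of 362 in 37/31°C, where 0.921%, 1.49% and 0.579% of all IR events were called. In MAPKKK3, ψ at 35°C differed from that at 31°C by 52.3 points at V5 and -10.4 points at V4, a difference of 62.7 points (FDR = 0.00039). In Zm00001d017522 the difference between the changes was -8.63 points in 33/31°C (FDR = 0.00087) and -9.47 points in 35/31°C (FDR = 0.00029). In Zm00001d005881 it was 9.28 points in 33/31°C (FDR = 0.0064) and 15.7 points in 35/31°C (FDR = 0.00048). There ψ at 35°C was 22.1%, 27.0% and 23.3% at V5 and 1.60%, 2.90% and 1.90% at V4, against 15.1%, 17.2% and 15.1% at 31°C at V5 and 9.10%, 8.10% and 11.2% at 31°C at V4.

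Zm00001d036337 moved by -7.07 points at V5 and 4.30 points at V4 in 35/31°C, a difference of -11.4 points (FDR = 0.00048). Zm00001d052093 rose at both stages in 37/31°C, by 22.9 points at V5 and 34.4 points at V4, and the difference of -11.5 points was called (FDR = 0.0035) but lost without any of 5 of the 12 libraries (highest FDR = 0.017). For Zm00001d029371, whose decrease was called at V5 and not at V4, the difference of -37.6 points in 37/31°C was not called (FDR = 0.24), at 10 to 23 V4 reads per library at 37°C. For Zm00001d047739 in 37/31°C it was 6.27 points (FDR = 0.81) and for Zm00001d022272 -13.3 points (FDR = 0.18), so no stage difference was shown for either.

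Together, 26 introns in 25 genes were called in at least 1 of these tests. They comprised 12 introns of 101 to 150 bases, 5 of 151 to 200 bases and 9 of 201 to 250 bases, and their median length was 160.5 bases against 149.5 bases over the 488 tested introns. Their length was a multiple of 3 in 8 of 26 (30.8%), against 200 of 488 (41.0%). They had a median of 85.6 reads per library against 56.2, and 23 had a mean ψ between 10% and 90%, against 284 of 488 (58.2%). Depth and level thus moved with the calls, and their part in which introns were called was not tested. In 17 of the 26, another AS event of the same gene was tested against 31°C, and in 7 of these another event was called in those pairwise comparisons. Among them were 4 events of alternative 5′ splice sites and skipped exons in Zm00001d022272. For the Zm00001d050936 intron at 132629781 to 132629923, the other called event was the intron at 132630134 to 132630295, itself among the 26. The reverse was not counted, because the intron at 132629781 to 132629923 was called only over the 4 MDTs. The same share was not computed for introns that were not called, so no comparison can be drawn.

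Of 16 genes that the study names, 6 had an intron of this length, 7 introns in all. Besides MAPKKK3, the other called one was the 126-base intron of Zm00001d051139 (chromosome 4, 145547913 to 145548038, minus strand), a gene for an RNA-binding protein with RNA recognition motifs. Its ψ at V5 was 85.9%, 90% and 89.8% at 31°C, 59.1%, 75.8% and 73.9% at 33°C, 94.9% and 98.6% at 35°C in the libraries with a value, and 85.8%, 96.8% and 90.6% at 37°C. The 33°C libraries were the lowest, and the 4 MDTs differed (FDR = 0.0038), a call lost without the first or the third library at 33°C. No V5 difference from 31°C was called for it. At V4 its mean was 89.6% ± 6.52 at 37°C against 69.3% ± 0.896 at 31°C, a difference of 20.3 points that was not called (FDR = 0.020).

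The remaining 5 introns were not called. In the homolog of Arabidopsis CALCIUM UNDERACCUMULATION 1 (CAU1, Zm00001d004109), a regulator of flowering in Arabidopsis, the 170-base intron had a mean ψ of 54.8% and the 127-base intron one of 77.1%, at 25.1 and 24.6 reads per library, and group SDs reached 31.0 and 37.8 points. Zm00001d048415, named SPFcc1-like, had a 205-base intron with a mean ψ of 36.0% at 22.5 reads. The 155-base intron of Zm00001d006116, a phosphatidylethanolamine-binding protein gene, had a value in 14 libraries, with 63.5% ± 16.4 at 33°C against 64.9% ± 23.3 at 31°C at V5. The 146-base intron of CONSTANS-LIKE9 (Zm00001d045804) had a value in 1 library, from 5 reads.

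A further 24 introns of this length lay in genes that the study lists as differentially expressed with MDT. Only for that list was an annotation with Arabidopsis matches read, so these introns do not stand for the whole set. Retention in them ran from 0.149% in a glutathione transferase gene (Zm00001d047765, 117 bases, 1064 reads), which encodes a detoxifying enzyme, to 98.9% in a leucine-rich repeat kinase gene (Zm00001d048877, 104 bases). Low values were also found in the match of RBOHD (Zm00001d052653, 3.11%), an NADPH oxidase that makes reactive oxygen species in Arabidopsis, and of homogentisate 1,2-dioxygenase (Zm00001d045610, 4.55%), an enzyme of tyrosine breakdown. High values were found in the match of FIP37 (Zm00001d054001, 87.9%), a part of the Arabidopsis RNA methylation complex, and in both introns of the match of BLH1 (Zm00001d053151, 92.6% each), a homeodomain protein. The introns of APT2 (Zm00001d051080, 15.6%), which recycles adenine, and of a TLD-domain protein (Zm00001d044860, 17.5%) had values in all 24 libraries. None of the 24 introns was called in any test, next to 26 of all 827 introns.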

How the data were processed

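RNA of 24 maize leaf libraries was analysed from 2 deposited tables, 1 per stage, which listed AS events of 5 types. The authors filtered reads, aligned them to the B73 genome with HISAT2 2.0.4 (Bowtie2 2.2.5 is also named in the submitters' processing notes) and detected events with rMATS. The tables held deposited counts of inclusion and skipping reads, not normalized, and inclusion levels that the authors gave as a fraction and that are printed here as a percent. The ratio of effective lengths used by the authors was 1 plus the intron length divided by 149, which fits longer reads than the methods describe, so ψ depends on that choice while the counts do not.

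In the V4 table, 5 columns could not be assigned to 1 library and were not used. For V4 31°C libraries 2 and 3, inclusion reads were therefore recovered from ψ and skipping reads. In 93.5% and 91.2% of the introns, the rounding of ψ left the recovered reads uncertain by at most 5%. The same step matched given reads within 5% in 99.2% of V4 values. For V4 33°C, ψ was computed from reads. Repeated heading lines, 4 per table, were dropped. Of the gene IDs, 0 matched the RefSeq gene table, so names come from the study. Sequences were not analysed here.

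Each event was tested on its reads with a quasi-binomial model over the libraries compared (numpy 2.4.6 in Python 3.11.15), its spread moderated over all events of a table with limma 3.58.1 (squeezeVar, in R 4.3.3) and not set below 1. The test was an F test, with Benjamini-Hochberg FDR over all IR events tested. An event needed a mean of 10 reads per library and values in 2 of 3 libraries of each group. Pairwise tests used the 2 groups compared, the test over 4 MDTs the 12 libraries of a stage, and the stage test 12 libraries with an interaction term. The FDRs set a difference against the spread between the libraries of a group, after that moderation. How much of this spread lies between chambers is not known, because the labels do not name the chamber. PCR reads carry no molecular identifiers, so read counts are not independent molecules. The scripts were tested on simulated data. Alternatives were edgeR 4.0.16, limma on the logit of ψ, other minimums of reads and libraries, FDR of 5%, FDR over all event types, a shared spread, a replicate block and leaving out each library.

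Introns were named by rule: up to 6 called introns per comparison with the largest change, at least 20 reads and no overlap, those called in 3 or more comparisons, up to 4 per stage test, 4 each with the highest, lowest and steadiest ψ among introns of at least 100 reads, called introns of RNA-binding protein genes, and all in genes the study names. Introns called only over the 4 MDTs, the other pairwise calls and introns of other annotated genes were added after their values were seen. The introns and lists were chosen with earlier results of these data known.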

Additional observations from a re-analysis of the deposited data

Results flagged for a closer look

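In 5 introns the change of ψ against 31°C differed between V5 and V4 by the interaction test. The 114-base intron of Zm00001d026511 (MAPKKK3) had the largest difference, 62.7 points in 35/31°C. The 214-base intron of Zm00001d005881 differed by 9.283 points in 33/31°C and by 15.67 points in 35/31°C, and the 243-base intron of Zm00001d017522 by -8.634 points in 33/31°C and -9.467 points in 35/31°C. The 223-base intron of Zm00001d036337 differed by -11.37 points in 35/31°C and the 200-base intron of Zm00001d052093 by -11.5 points in 37/31°C. Each value is the change at V5 minus the change at V4. The difference of Zm00001d005881 in 33/31°C was lost on leaving out any of 8 of the 12 libraries (highest FDR = 0.037) and that of Zm00001d052093 on leaving out any of 5, while the other 5 differences held in every such test that could be run. Single outlying libraries were not tested for in groups of 3.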

How the results depend on the processing

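No pairwise or stage call changed direction when 1 library was left out. The other alternatives kept the same difference of mean ψ, so its direction could not change there. The test over the 4 MDTs gives a range, which has no direction. The counts of calls below are given where they moved by over 1.5 times, and the cause was not tested. At an FDR of 5%, 7 introns were called in V5 33/31°C, 32 in V5 35/31°C, 19 in V5 37/31°C, 2 in V4 33/31°C, 5 in V4 35/31°C and 17 in V4 37/31°C, with 49 at V5 and 17 at V4 over the 4 MDTs, and 5 in the stage test of 33/31°C and 9 in that of 35/31°C. limma on the logit of ψ gave 0 in each of the 6 pairwise comparisons, and edgeR gave 0 in V5 33/31°C and 0 in V4 35/31°C. With values required in all 3 libraries of each group, which tests fewer introns, the counts were 5 in V5 33/31°C, 18 in V5 35/31°C, 6 in V4 37/31°C and 6 over the 4 MDTs at V4. With 1 spread shared by the 4 groups they were 13 in V5 35/31°C and 6 in V4 37/31°C. A minimum of 20 reads gave 5 over the 4 MDTs at V4, and FDR over all 5 event types gave 5 in V5 37/31°C and 1 in the stage test of 33/31°C. For these alternatives and those below, the share over all IR events was not computed. The counts therefore show only how the number of calls moved.

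Leaving out 1 library at a time gave 3 to 5 calls in V5 33/31°C, 6 to 10 in V5 35/31°C and 3 to 8 in V5 37/31°C, where the lowest count came without the third library at 37°C. It gave 0 to 0 in V4 33/31°C, 1 to 2 in V4 35/31°C and 1 to 4 in V4 37/31°C. Over the 4 MDTs the range was 19 to 25 at V5 and 3 to 5 at V4, and for the stage tests it was 1 to 2 in 33/31°C, 3 to 5 in 35/31°C and 0 to 2 in 37/31°C.

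Replicate numbers did not pair the libraries: over all events, deviations of same-numbered libraries correlated at -0.024 to 0.048, and no library correlated best with its own number throughout a comparison. With the replicate number as a block, 5 introns were called in V5 33/31°C, 20 in V5 35/31°C, 5 in V5 37/31°C, 1 in V4 33/31°C, 1 in the stage test of 33/31°C and 0 in that of 37/31°C.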
